A study of Mus musculus with 3 samples.

Results

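The autophagy machinery was described here as 35 genes given as a list of symbols. All 35 were found among the 55536 annotated genes of the mouse. They were measured in 1 group of 3 libraries of ribosomal RNA-depleted total RNA. The RNA came from the cytosol of macrophages derived from bone marrow of the strain C57BL/6J and given lipid A, the Toll-like receptor 4 ligand within bacterial lipopolysaccharide, at 100 ng/ml for 90 min. Cells without lipid A, other times and the nuclear fraction were not analysed here. No response of a gene was therefore measured, and levels were compared between genes within a library. The labels number the libraries as biological replicates 1 to 3, give them the same donor identifier and record neither sex nor age, so every SD and p below measures only the spread between these libraries, which may be partly technical.

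Autophagy wraps a piece of cytoplasm in a double membrane, the autophagosome, and delivers it to the lysosome. A kinase complex around ULK1 starts the process, a lipid kinase complex around VPS34 and Beclin 1 makes phosphatidylinositol 3-phosphate on the forming membrane, and a pair of ubiquitin-like reactions fix proteins of the ATG8 family (the LC3 and GABARAP proteins) to lipid in that membrane. In macrophages the pathway degrades intracellular bacteria and damaged organelles, and part of it serves LC3-associated phagocytosis.

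The libraries held 33821479, 47843161 and 59390843 expected counts in replicates 1, 2 and 3. The lowest count of a member in any library was 171. Macrophage identity was checked on 8 markers (among them Lyz2, Csf1r and Adgre1), which were all above the reference defined in the next paragraph, with summed levels of 7215, 5520 and 5179 TPM. Markers of T cells, B cells, erythroid cells, mast cells and fibroblasts had list medians of at most 0.055 TPM, and those of dendritic and endothelial cells 0.343 and 0.203 TPM. The 6 neutrophil markers summed to 41.0, 23.8 and 40.3 TPM, with S100a9 above the reference and Elane and Mpo at means of 0.127 and 0.193 TPM, and their part in the levels below was not tested. The nuclear RNA Malat1 differed between libraries, with 813, 2413 and 6978 CPM (counts scaled to a library's total) in replicates 1, 2 and 3, and Neat1 followed with 85.2, 178 and 452 CPM.

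Of the 5 ATG8 genes 4, and of the 3 cargo receptors 2, lay above the typical protein-coding gene of these cells, together with Becn1, Atg7 and Tfe3. In a second quantification that the authors deposited, 5 of these 9 genes kept the call and Gabarapl2, Atg7, Optn and Nbr1 lost it, while Rb1cc1 gained it. The 10 members that lay below it were spread over the initiation, PI3-kinase, lipid transfer, protease and conjugation genes. Levels are given in TPM, a transcript's share of the library's transcripts after correction for length. The reference was a median taken in each library over 8752 protein-coding genes averaging 1 TPM or more, and stood at 7.38, 6.07 and 6.21 TPM in replicates 1, 2 and 3. A gene was called above or below it when log2(TPM + 0.1) differed by at least 1 with an adjusted p under 0.05 (limma, Benjamini-Hochberg over 13344 genes). Of the 35 members, 9 lay above the reference, 10 below it and 16 did neither, while 20.5% of all genes tested were called above and 50.6% below (23.4% and 43.7% of the protein-coding ones). The median member stood at 5.49 TPM, a log2 difference of -0.26 ± 0.10 from the reference (SD over libraries, n = 3), beside medians of -1.06 over all genes tested and -0.63 over the protein-coding genes tested. In bulk RNA, fewer cells of a type and less RNA per cell cannot be told apart.

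Mean levels ran from 1.49 TPM (Atg14) to 208 TPM (Gabarap), a 140-fold range, and 12 members averaged over 10 TPM. The coefficient of variation over libraries was 5.24% to 30.4%, with a median of 13.3%. In 32 of 35 members the TPM was highest in replicate 1, where the reference was also highest, and 32 kept their sign against the reference in 3 of 3 libraries. When members were ordered by their log2 difference from the reference, the ranges over libraries were apart for only 6 of 34 neighbouring pairs. These were Gabarap over Gabarapl1, Gabarapl1 over Map1lc3b, Tfe3 over Optn, Nbr1 over Gabarapl2, Atg3 over Rb1cc1 and Uvrag over Ulk2. Below Ulk2 no neighbouring ranges were apart. Compared within each library, 11 of the 34 pairs kept their order in 3 of 3 libraries, Ulk2 over Atg5 and Wipi1 over Atg10 among them. In the second quantification Rb1cc1 (11.4, 7.57 and 6.17 TPM) exceeded Atg3 (7.37, 4.67 and 3.74 TPM) in each library. Gabarapl2 (9.46, 6.09 and 4.97 TPM) likewise exceeded Nbr1 (7.80, 5.48 and 4.55 TPM). There Map1lc3b (21.6, 12.9 and 9.08 TPM) exceeded Gabarapl1 (20.7, 12.3 and 10.7 TPM) in replicates 1 and 2.

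**Figure D1:**
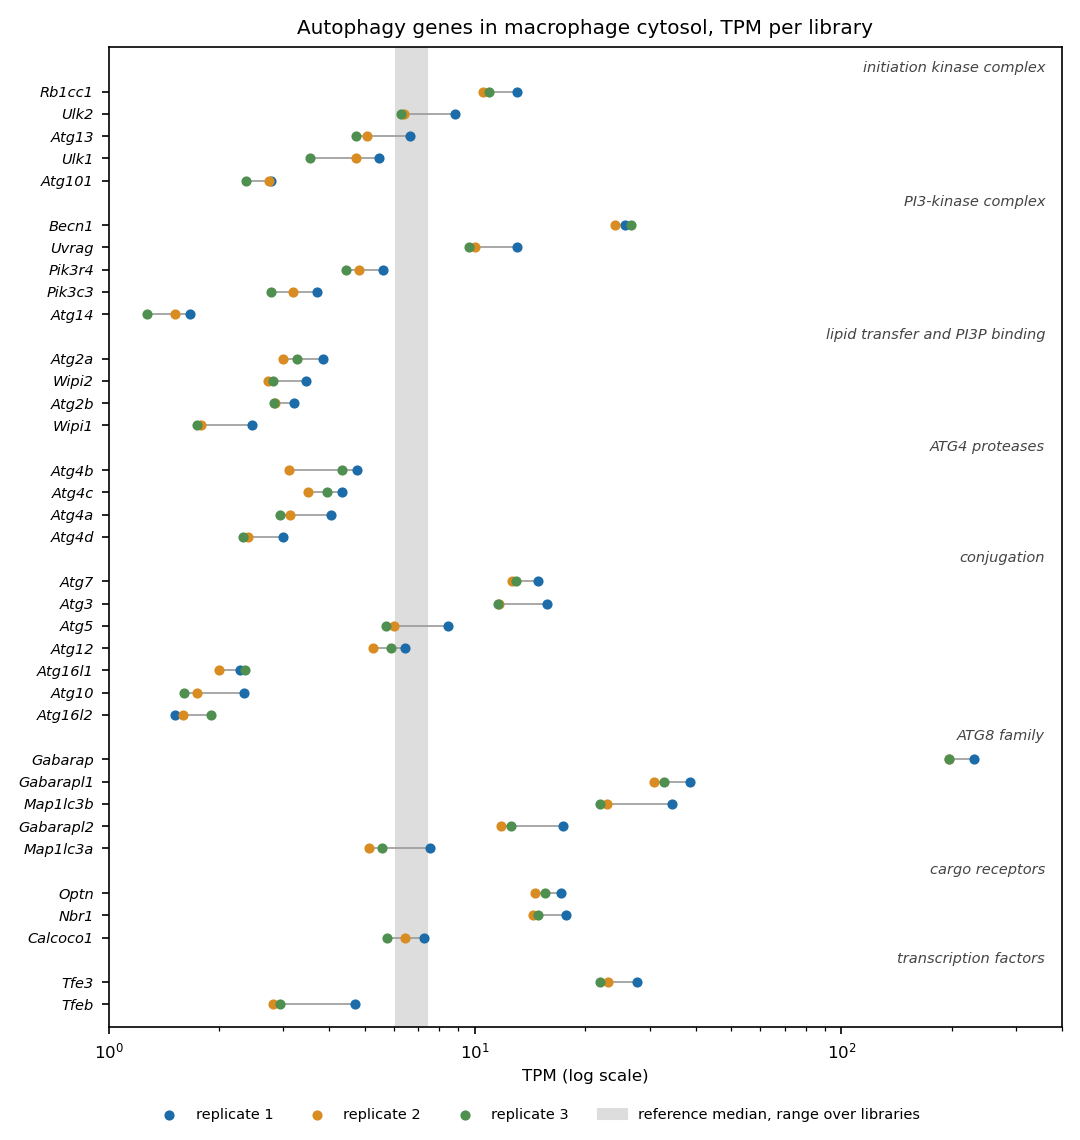
TPM of the 35 autophagy genes in each of the 3 libraries (points, log axis), grouped by role, with the range of the reference median over libraries as a grey band. Gabarap stands alone at 208 TPM on average, and every lipid transfer, phosphatidylinositol 3-phosphate-binding and ATG4 protease gene lies left of the band.

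Of the 5 initiation kinase genes, 0 were called above the reference and 1 below. Rb1cc1, which encodes FIP200, the scaffold of the ULK complex, had 13.0, 10.6 and 10.9 TPM in replicates 1, 2 and 3, a log2 difference of 0.80 ± 0.01. In the second quantification it was called above at 1.10, and on coding transcripts only it stood at 0.23. Ulk2 had 8.80, 6.41 and 6.29 TPM and Ulk1, the other kinase, 5.47, 4.75 and 3.55 TPM. The 2 ranges did not overlap, and Ulk1 minus Ulk2 was negative in each library (-0.64 ± 0.19 log2 units). Ulk1 was called below in the second quantification (-1.03). Atg13, which tethers the kinase to FIP200, averaged 5.49 ± 1.03 TPM. Atg101, its HORMA-domain partner, had only 2.78, 2.74 and 2.37 TPM and lay 1.28 log2 units below the reference (limma, Benjamini-Hochberg adjusted p = 0.000311).

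The PI3-kinase complex had members on both sides of the reference. Becn1, the gene of Beclin 1 (chr11:101285952-101302286, mm10, minus strand), had 25.75, 24.07 and 26.71 TPM. It lay above the reference by 1.95 ± 0.15 log2 units, although most of this sum came from transcripts not annotated as protein-coding, described further on. Pik3c3, which encodes the catalytic subunit VPS34, had 3.71, 3.18 and 2.78 TPM and lay 1.01 log2 units below (limma, Benjamini-Hochberg adjusted p = 0.00044), at the edge of the minimum difference. It was no longer called without replicate 3 (-0.93) or with a pseudocount of 1 (-0.84). Pik3r4, the regulatory subunit VPS15, averaged 4.96 ± 0.59 TPM and was not called, but was called below in the second quantification (-1.23).

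Atg14 and Uvrag encode the alternative subunits that direct VPS34 to the autophagosome or to the endosome. Uvrag had 13.01, 10.02 and 9.61 TPM and Atg14 had 1.67, 1.52 and 1.27 TPM, so the lowest Uvrag value was well over the highest Atg14 value. The difference was 2.79 ± 0.13 log2 units (SD, n = 3), 6.90-fold, with the same sign in 3 of 3 libraries. This pair was chosen after its values were seen, so the difference is a description with no test. Atg14 (chr14:47540893-47570649, minus strand) was the lowest of the 35 members, at -2.07 ± 0.14 log2 units from the reference.

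**Figure D2:**
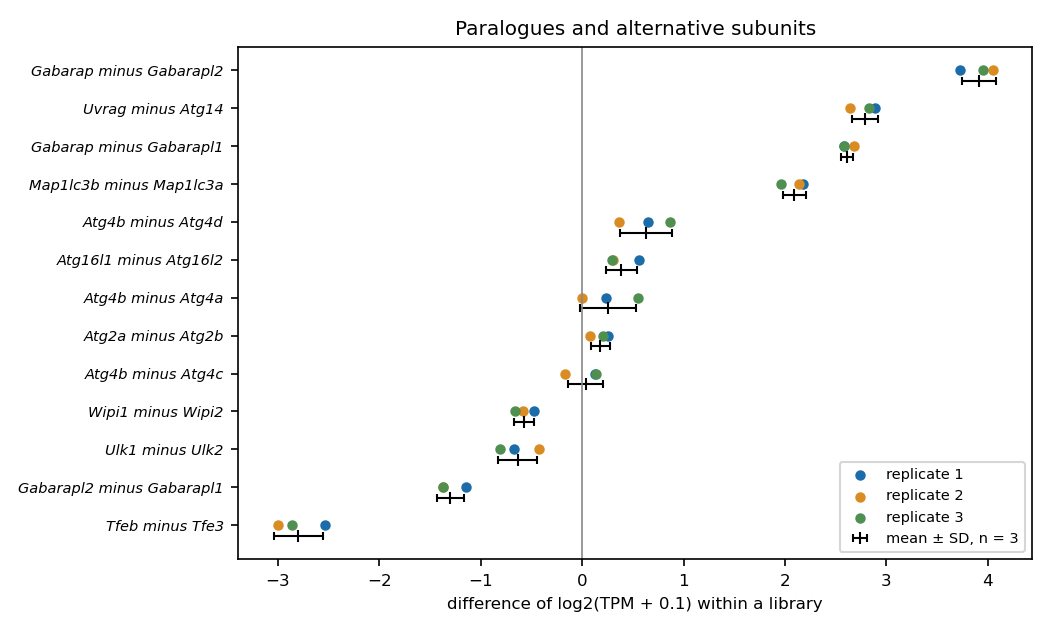
Difference of log2(TPM + 0.1) within each library (points) between paralogues or alternative subunits, with mean and SD over 3 libraries. Gabarap over its paralogues, Uvrag over Atg14, Map1lc3b over Map1lc3a and Tfe3 over Tfeb are the wide differences, while Atg2a minus Atg2b, Atg4b minus Atg4a and Atg4b minus Atg4c average 0.03 to 0.26.

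The lipid transfer and phosphatidylinositol 3-phosphate-binding genes were all low, with means of at most 3.37 TPM. Atg2a and Atg2b encode the proteins that move lipid into the growing membrane, and Wipi1 and Wipi2 encode propellers that read phosphatidylinositol 3-phosphate. Their means were 3.37 ± 0.43, 2.95 ± 0.21, 2.00 ± 0.41 and 3.00 ± 0.40 TPM, and 3 of the 4 (Atg2b, Wipi1 and Wipi2) lay below the reference. With a pseudocount of 1, Atg2b (-0.93) and Wipi2 (-0.92) were no longer called. Atg2a missed the minimum difference at -0.94, but was called below in the second quantification (-1.49). Wipi1 was lower than Wipi2 in each library, with 2.47, 1.79 and 1.74 TPM against 3.46, 2.73 and 2.81 TPM (-0.57 ± 0.10 log2 units).

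The ATG4 proteases, which trim ATG8 precursors and release ATG8 proteins from lipid, all had means under the reference. Atg4b had 4.76, 3.11 and 4.34 TPM, Atg4c 4.34, 3.50 and 3.94 TPM, and Atg4a 4.04, 3.12 and 2.94 TPM. The ranges of these 3 overlapped. Atg4b minus Atg4a was 0.26 ± 0.28 log2 units with the same sign in 2 of 3 libraries (exact sign-flip permutation test, two-sided p = 0.5), and Atg4b minus Atg4c was 0.03 ± 0.17 (p = 1 in the same exact test). With 3 libraries this test cannot give a p under 0.25, so it could call no difference and does not show that the genes are alike. Atg4d, with 2.99, 2.40 and 2.33 TPM, was the only one called below the reference, at -1.32 ± 0.05, and Atg4a joined it at -1.02 without replicate 1 and at -1.47 in the second quantification. On coding transcripts only, Atg4d stood at -3.88 and Atg4b minus Atg4d widened to 2.82, against 0.63 for the genes.

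In the conjugation machinery, the enzymes of the ATG8 branch were the most abundant. Atg7, the E1-like enzyme shared by both branches, had 14.90, 12.65 and 12.94 TPM, which is 1.03 ± 0.03 log2 units above the reference, at the edge of the minimum difference. It was not called with a pseudocount of 1 (0.94) or in the second quantification (0.77). Atg3, the E2-like enzyme that hands ATG8 to lipid, had 15.68, 11.61 and 11.53 TPM (0.96 ± 0.10, not called, but called at 1.01 without replicate 3). Atg10, the E2-like enzyme of the ATG12 branch, had 2.35, 1.74 and 1.61 TPM, far below both, and was called below the reference at -1.75 ± 0.14.

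The ATG12 branch itself builds a complex of ATG12, ATG5 and ATG16L1 that sets where ATG8 is attached. Atg5 had 8.45, 6.01 and 5.71 TPM and Atg12 averaged 5.86 ± 0.59 TPM, and neither was called. Atg16l1 had 2.29, 2.00 and 2.36 TPM and its paralogue Atg16l2 had 1.52, 1.60 and 1.90 TPM, and both were called below the reference. Atg16l1 was the higher in each library (0.39 ± 0.15 log2 units), but the second deposited quantification gave -0.21.

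The ATG8 family held most of the module's TPM, with 328.87, 267.41 and 269.61 of 570.48, 465.17 and 469.40 TPM in replicates 1, 2 and 3. Gabarap (chr11:69991143-69994951, plus strand) had 230.81, 196.88 and 196.71 TPM, which is 4.97 ± 0.02 log2 units above the reference, 31.3-fold (limma, Benjamini-Hochberg adjusted p = 3.21e-05, 3 of 3 libraries). It made up 72.3% ± 1.83 of the TPM of the 5 ATG8 genes and 41.6% ± 0.979 of the TPM of all 35 members. These shares depend on the quantification. Relative to the median gene, the first put Gabarap 0.30 ± 0.04 log2 units higher than the second, and Map1lc3b 0.33 ± 0.07 lower. Gabarapl1 (38.60, 30.71 and 32.78 TPM), Map1lc3b (34.54, 22.91 and 21.97 TPM) and Gabarapl2 (17.36, 11.78 and 12.58 TPM) were also called above, although Gabarapl2 was not called without replicate 1 (0.95), with a pseudocount of 1 (0.97) or in the second quantification (0.81). Map1lc3b encodes LC3B, the usual marker protein of autophagosomes. Map1lc3a, which encodes LC3A, had 7.56, 5.13 and 5.57 TPM and stayed near the reference (-0.12 ± 0.14). Map1lc3b exceeded it by 2.09 ± 0.12 log2 units, 4.26-fold, and Gabarap exceeded Gabarapl1 by 2.61 ± 0.06 and Gabarapl2 by 3.91 ± 0.17, each in 3 of 3 libraries (exact sign-flip permutation test, two-sided p = 0.25 each, the smallest possible).

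The 5 ATG8 genes are shown by the last 9 codons of their reading frames, stop codon included, because ATG4 cuts the precursor after the glycine coded there. The last glycine codon is in capitals (GRCm38, plus strand in all 5, GENCODE M21 transcripts).
Gabarap, chr11:69994498-69994524: agtgatgaaagcgtctatGGTctgtga
Gabarapl1, chr6:129541141-129541167: agtgatgaaagtgtctatGGAaaatga
Gabarapl2, chr8:111952379-111952405: agcggagagaacacttttGGCttctga
Map1lc3a, chr2:155277611-155277637: gcctcccaagaaaccttcGGCttctga
Map1lc3b, chr8:121596744-121596770: acattcGGGacagcaatggctgtgtaa
In 4 of the genes 1 codon follows the glycine, and in Map1lc3b 5 codons do. Over whole reading frames, Gabarap and Gabarapl1 shared 74.6% of aligned bases, Gabarapl2 shared 64.3% with Gabarap and 64.6% with Gabarapl1, and Map1lc3a shared 77.6% with Map1lc3b. Pseudogenes at 95% identity or more over at least 200 bases had low levels, the highest being Gm6055 for Map1lc3b (0.473 TPM) and Gm3724 for Gabarapl2 (0.233 TPM). The annotated gene Gm20388 covers all 8400 bases of Map1lc3b on the same strand and had 7.42 TPM. The same search found no stretch of at least 200 bases shared by their transcripts. Part of the Map1lc3b reads may still be divided between the 2 entries, which was not tested.

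Among the cargo receptors, which bind ubiquitinated cargo or endoplasmic reticulum and ATG8 at once, Optn had 17.16, 14.54 and 15.54 TPM and Nbr1 had 17.68, 14.40 and 14.83 TPM. Both lay above the reference, at 1.25 ± 0.05 and 1.24 ± 0.01 log2 units, but stood at 0.80 and 0.63 in the second quantification and were not called there. Calcoco1, an endoplasmic reticulum receptor, averaged 6.48 ± 0.74 TPM and was not called. TFEB and TFE3 are related transcription factors that drive lysosomal and autophagy genes. Tfe3 had 27.67, 23.08 and 21.92 TPM and Tfeb had 4.70, 2.81 and 2.93 TPM, so Tfeb minus Tfe3 was -2.80 ± 0.24 log2 units, a 6.94-fold lower level of Tfeb with the same sign in 3 of 3 libraries. Tfe3 was called above the reference and Tfeb was not called (-0.93 ± 0.25). It was called below without replicate 1 (-1.10), in the second quantification (-1.40) and with a reference of genes of at least 5 TPM (-1.96).

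TFEB and TFE3 bind the E-box CACGTG, often within the longer motif TCACGTGA, so RefSeq promoter windows from 250 bases before to 50 bases after a start were searched (GRCm38.p6). The letters read the same on both strands, and the longer motif contains the shorter one. Of the members, 29 had a window, 35 windows in all. CACGTG was in 4 member windows (11.4%), beside 7.15% of all 32817 windows, and TCACGTGA in 1 (2.86%), beside 0.975% of all. With so few windows, the shares describe these genes only. The matches are shown in capitals with 12 bases on either side, 5′ to 3′ on the gene's strand.
Atg3, chr16:45158723-45158752, plus strand: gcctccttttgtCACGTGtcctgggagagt
Atg3, chr16:45158746-45158775, plus strand: ggagagtcgagtCACGTGaggccttaggtg
Atg5, chr10:44268313-44268342, plus strand: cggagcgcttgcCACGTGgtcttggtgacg
Atg7, chr6:114670952-114670981, plus strand: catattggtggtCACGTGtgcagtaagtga
Atg14, chr14:47568418-47568447, minus strand: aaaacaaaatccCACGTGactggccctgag
The second Atg3 match holds the 8-base motif. The 4 genes with a match included Atg7, called above the reference, and Atg14, the lowest member. The Atg7 match lies 132 bases before a RefSeq start inside the gene. The leading GENCODE transcript, Atg7-201, starts at chr6:114643097, and no GENCODE model of Atg7 starts close to the match. It therefore does not describe the promoter of the leading transcript.

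The level of a gene need not be the level of an mRNA that codes for its protein, so the TPM of each member was divided by annotated transcript class. GENCODE lists 263 transcripts for the 35 members. The median member had 95.4% ± 2.79 of its TPM on protein-coding transcripts, beside 96.9% over 8128 protein-coding genes with at least 2 transcripts and 1 TPM. In 22 members the share was at least 90%, as it was in 70.3% of those genes. In 2 members, Becn1 and Atg4d, it was under 50%, beside 4.68% of genes, and in the same 2 the leading transcript was not protein-coding (4.87% of genes). Between 50% and 80% lay Pik3r4 (58.1% ± 3.25), Atg16l2 (58.8% ± 6.09), Rb1cc1 (62.3% ± 2.82), Atg4b (71.3% ± 9.71) and Map1lc3a (76.3% ± 3.87).

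**Figure D3:**
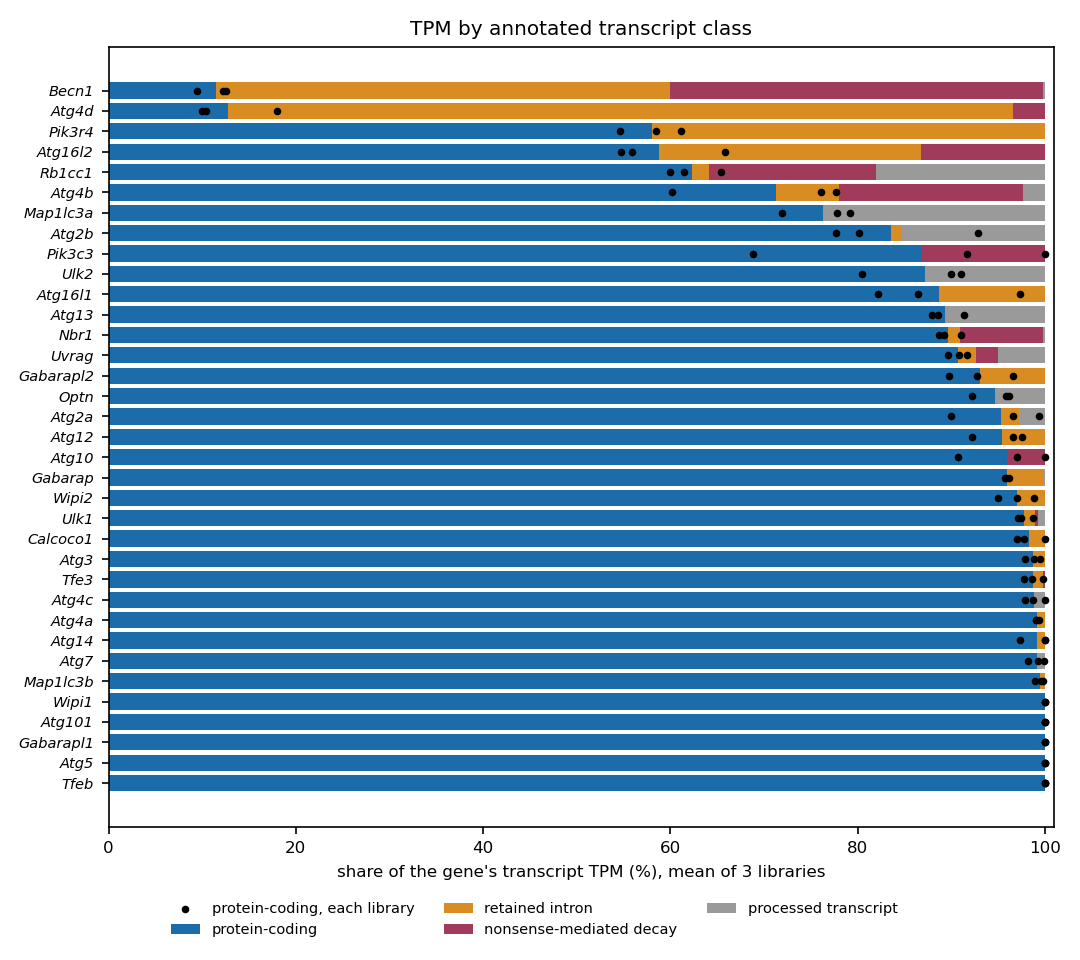
Share of each member's transcript TPM on protein-coding, retained-intron, nonsense-mediated decay and processed transcripts (stacked bars, mean of 3 libraries), with the protein-coding share in each library as points. Becn1 and Atg4d stand apart with coding shares of 11.4% and 12.8%.

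Becn1 had 12.6%, 12.3% and 9.43% of its TPM on protein-coding transcripts in replicates 1, 2 and 3. The short retained-intron transcript Becn1-211 (487 nt) had 8.65, 12.39 and 11.82 TPM and the nonsense-mediated decay transcript Becn1-201 (2123 nt) had 8.28, 6.28 and 7.26 TPM. The main coding transcript, Becn1-205 (4365 nt, 448 codons), had only 2.78, 2.70 and 2.44 TPM. TPM weighs a read on a short transcript more than one on a long transcript, and by expected counts the coding share was 34.0% ± 3.49. On that scale Becn1-205 held 683.77, 1060.75 and 1164.20 counts and Becn1-201 held 930.88, 1132.90 and 1594.17. Counted on coding transcripts only, Becn1 lay 1.04 log2 units below the reference of coding TPM and was called below, the reverse of its call as a gene. Pik3r4 (-1.05) and Atg4b (-1.07) were also called below on that scale, and Atg3 (1.05) above.

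The annotated models of Becn1-201 and Becn1-205 differ at internal exon boundaries, which give Becn1-201 68 bases of its own, and at the 3′ end. Becn1-201 has an exon of chr11:101296194-101296316 where Becn1-205 has chr11:101296258-101296316, and ends at 101288262, against 101285952 for Becn1-205, which leaves out 2310 bases. The part of the exon found only in Becn1-201 is shown because it brings the stop codon (capitals) that ends the frame after 105 codons (GRCm38, chr11:101296194-101296257, minus strand).
Becn1-201: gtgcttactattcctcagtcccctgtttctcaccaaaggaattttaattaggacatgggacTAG
These 64 bases are most of the 68 found in Becn1-201 and not in Becn1-205.

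Atg4d showed the same pattern at a lower level. Its retained-intron transcript Atg4d-203 (2123 nt) had 1.73, 1.52 and 1.28 TPM, and its coding transcript Atg4d-201 (5951 nt, 474 codons) had 0.31, 0.24 and 0.42 TPM. The coding share was 12.8% ± 4.52 of TPM and 36.6% ± 8.72 of expected counts. Atg4d-201 has 4030 bases that Atg4d-203 lacks. The gene Kri1 (4.90, 3.96 and 5.27 TPM) overlaps Atg4d by 4316 bases on the opposite strand, and strand use in counting is stated in none of the sources used here, so reads of the 2 genes cannot be told apart there.

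**Figure D4:**
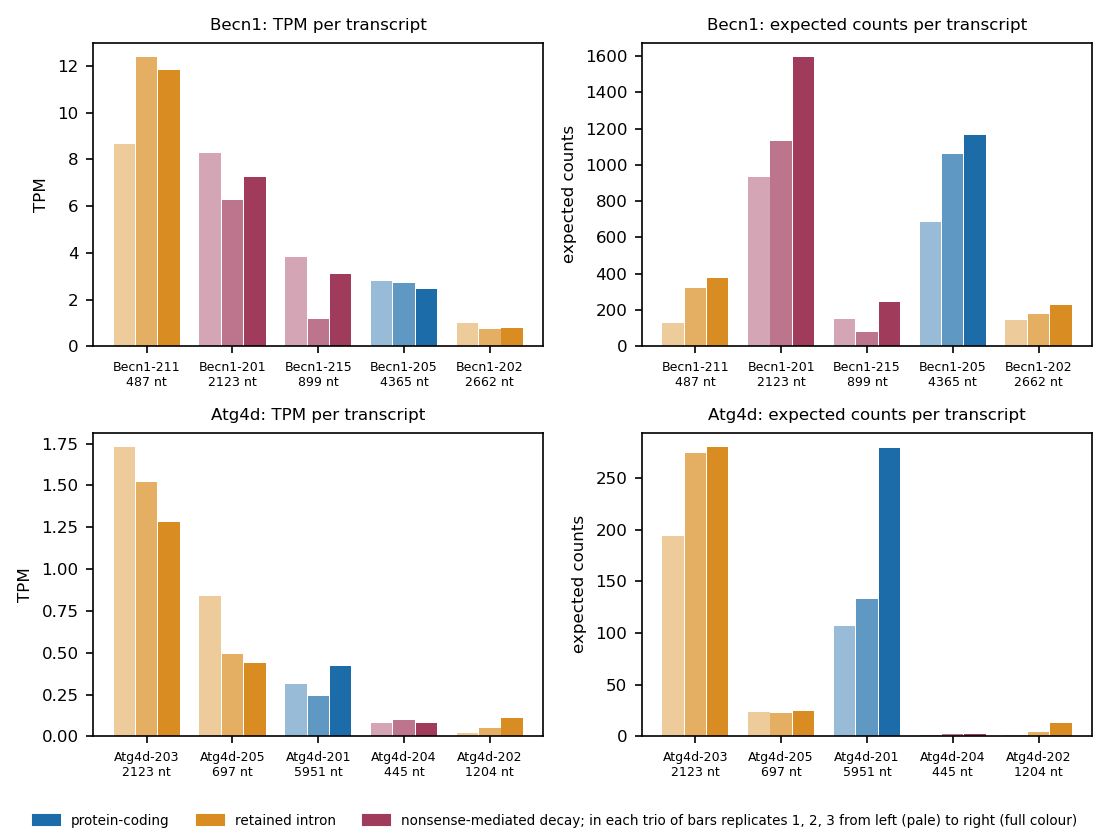
TPM (left) and expected counts (right) of the 5 leading transcripts of Becn1 (top) and Atg4d (bottom), with 1 bar for each of replicates 1, 2 and 3 and the transcript length under each name. By counts the long coding transcripts Becn1-205 and Atg4d-201 rank second in each library, and by TPM they rank lower, at 2.44 to 2.78 and 0.24 to 0.42 TPM.

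The retained-intron share differed between libraries. Of the 23 members with any, 15 had the highest share in replicate 3, where Malat1 and Neat1 were also highest, and 72.6% of 5222 protein-coding genes did so. The median retained-intron share of the members was 0.307%, 0.958% and 1.41% in replicates 1, 2 and 3, and that of protein-coding genes 0.107%, 0.420% and 1.06%. The part of nuclear RNA in these shares was not tested.

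Variation between libraries was tested on expected counts scaled by TMM, where 0 of 35 members varied more than genes of like abundance, beside 2.31% of 12339 genes (edgeR goodness-of-fit test, Benjamini-Hochberg threshold 0.05). With so few calls among all genes, nothing about the members is read from this count. At an unadjusted p under 0.05 there was 1, Atg16l2. It had 6.42, 10.1 and 12.7 CPM in replicates 1, 2 and 3 (edgeR goodness-of-fit, Benjamini-Hochberg adjusted p = 0.13). The median SD of log2 CPM was 0.091 over the members and 0.120 over all genes kept. Gabarap was the steadiest, with 353.1, 356.1 and 352.9 CPM. Ulk1 and Tfeb had the next highest SDs after Atg16l2, at 0.246 and 0.253 log2 units, with Ulk1 lowest in replicate 3 (44.3, 46.7 and 34.0 CPM) and Tfeb highest in replicate 1 (14.0, 10.1 and 10.5 CPM).

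**Figure D5:**
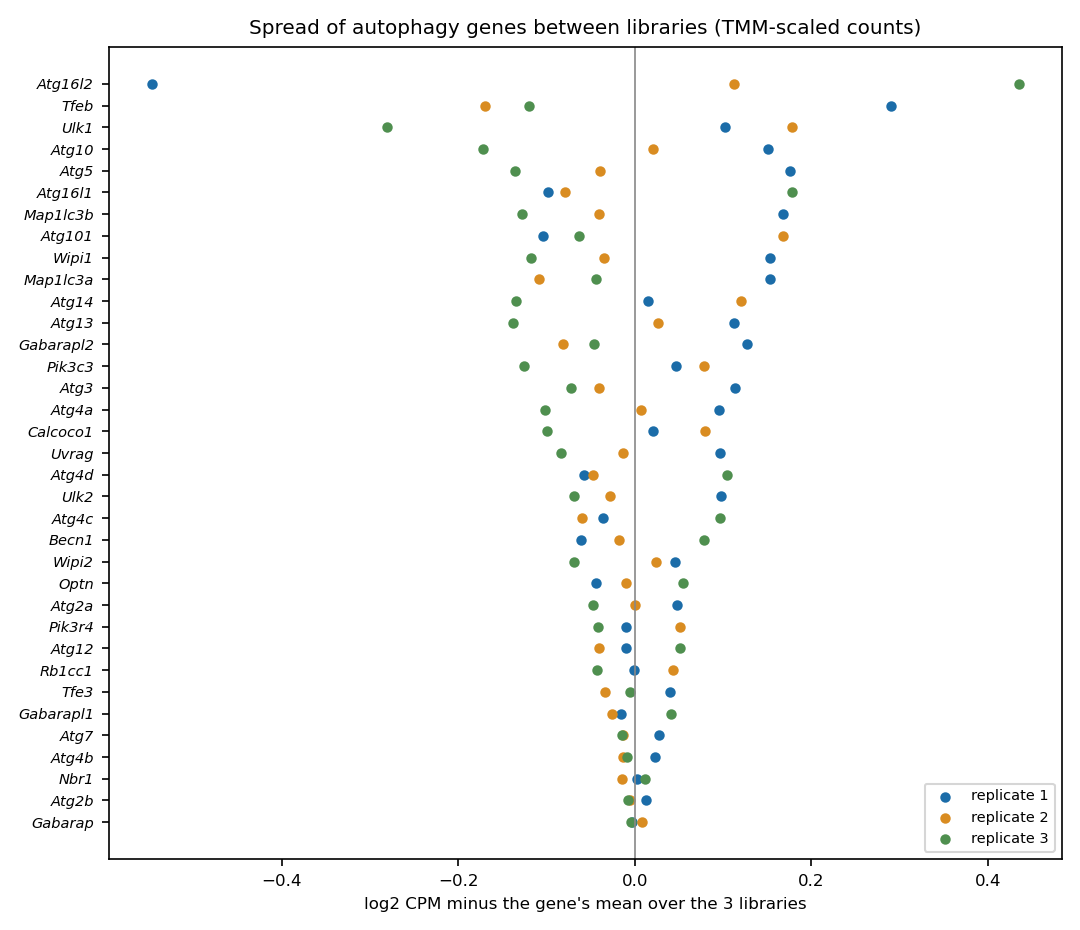
Log2 CPM of each member in each library minus the member's mean over the 3 libraries, ordered by SD. Atg16l2 spans the widest range, lowest in replicate 1 and highest in replicate 3, and Gabarap the narrowest.

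Of the members, 18 (51.4%) had their highest CPM in replicate 1 and 20 (57.1%) their lowest in replicate 3, where 38.3% and 36.4% of all genes kept did. Several members share genomic sequence with another gene. The span of Atg16l2 overlaps Fchsd2, a gene with 41.29, 35.39 and 34.97 TPM, by 21372 bases on the opposite strand. Of the Atg16l2 models, only the 473 nt Atg16l2-216 reaches chr7:101263034, and the next, Atg16l2-201, stops at chr7:101285321. The spans of 3 further members overlap a gene of over 1 TPM on the opposite strand (Atg2b with Gskip, Atg4b with Thap4, Atg4d with Kri1). Transcripts of Atg2b and Gskip shared a stretch of 383 bases and those of Atg4d and Kri1 792. No stretch of at least 200 bases was found for Atg16l2 with Fchsd2 or Atg4b with Thap4. Away from its own locus, Uvrag shared stretches of 226 to 345 bases at 95% identity or more with expressed protein-coding genes. The highest were Mettl6 (8.67 TPM), Txndc16 (7.85 TPM) and Tsc2 (6.81 TPM), beside 10.88 TPM for Uvrag. Atg16l1 contains the small Cajal body RNAs Gm25395 (16.57, 15.35 and 42.14 TPM) and Scarna6 (5.40, 6.44 and 13.81 TPM) on its own strand, both highest in replicate 3, where Atg16l1 had its highest CPM as well (11.0, 11.1 and 13.3). The part of all these other genes in the members' values was not tested.

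The second quantification was made directly from the reads, and the members' relative levels were compared between the 2. After centring on the median ratio, which was 1.02, 1.22 and 1.52 log2 units in replicates 1, 2 and 3, 0 members differed by at least 1 log2 unit in either direction, where 1.94% of 9491 genes were higher and 2.72% lower in the first (limma, Benjamini-Hochberg threshold 0.05). Differences of any size passed the adjusted p in 22 members, and did so in 49.0% of genes (24 members at an unadjusted p under 0.05). Atg16l2 (-0.77 ± 0.21), Rb1cc1 (-0.76 ± 0.06), Uvrag (-0.58 ± 0.02) and Atg4b (-0.57 ± 0.09) were relatively lower in the first quantification, and Pik3r4 (0.37 ± 0.04) and Gabarap (0.30 ± 0.04) relatively higher.

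In the second quantification 5 members had under 50% of their TPM on protein-coding transcripts, beside 5.99% of genes. Becn1 (5.25% ± 1.45) and Atg4d (5.53% ± 1.90) were again among them, joined by Uvrag (28.0% ± 1.78), Atg16l2 (40.0% ± 9.04) and Rb1cc1 (44.0% ± 1.15). The leading transcript differed between the quantifications in these latter 3 members, beside 10.7% of genes. For Rb1cc1 it was the 7607 nt coding Rb1cc1-201 in the first (35.2% ± 4.46 of TPM) and a 519 nt processed transcript in the second (40.6%).

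The deposited gene tables also carry a posterior interval for each TPM, whose level none of the sources used here states. In 3 members (Ulk1, Tfeb and Atg16l2) the TPM lay below its own interval in 3 of 3 libraries, beside 3.96% of protein-coding genes tested. For Atg16l2 in replicate 1, the TPM was 1.52 and the interval ran from 1.93 to 3.57.

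Outside the 35 genes, 53 further genes of the pathway in 5 lists gave a setting for these levels. Of them 51 were tested, 18 lay above the reference, 7 below and 26 did neither, with a median of 9.08 TPM. For these counts and those by list below, 20.5% of all genes tested were above and 50.6% below (23.4% and 43.7% of the protein-coding ones). Other cargo receptors had 7 of 12 tested above and 0 below, led by Sqstm1, the gene of the ubiquitin receptor p62, with 516.33, 475.55 and 431.27 TPM, and the ferritin receptor Ncoa4 (93.5 ± 21.1 TPM). Calcoco2 had 0 counts in every library, which allows up to 0.0891 CPM, here without TMM scaling, in the shallowest library. Gabarap, the highest member, therefore stood below Sqstm1 in each library.

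Among 14 fusion genes, 6 were above and 2 below, from the late endosomal GTPase Rab7 (146 ± 15.3 TPM) and the SNARE Vamp8 (51.6 ± 15.7 TPM) down to the tether Epg5 (2.01 ± 0.17 TPM). Of 11 further core genes 1 was above and 2 below, with the scramblases Vmp1 (27.4 ± 6.77 TPM) and Tmem41b (11.9 ± 1.43 TPM) highest and Atg9b (0.267 ± 0.132 TPM) lowest. Of 10 signalling genes, 9 were tested, 3 lay above and 1 below, with Tbk1, the kinase that phosphorylates optineurin, at 18.4 ± 2.61 TPM, the mTORC1 activator Rheb at 18.0 ± 1.59 TPM and Prkaa2 at 0.030 ± 0.010 TPM. Of 5 transcription factors 1 was above and 2 below. Tfec (59.5 ± 11.9 TPM) and Mitf (11.6 ± 1.74 TPM), relatives of TFEB and TFE3, were highest and Foxo1 (0.877 ± 0.025 TPM) lowest.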

How the data were processed

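Total RNA of 3 libraries was analysed, all in 1 group per the labels. Per the file headers, the authors deposited gene and transcript tables of expected counts, TPM, FPKM and posterior intervals (first quantification, mm10 per the labels) and a table of estimated counts and TPM per transcript made from FASTQ files (second quantification). No source used here states the tools, their versions or the use of strand. Each gene table held 81881 entries, of which 26345 that are not annotated genes (0.0982% to 0.443% of expected counts) were left out. Expected counts were rounded for edgeR. The members, lists, pairs and tests were chosen with earlier results of these data known, and all 35 members are named.

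Levels were tested on log2(TPM + 0.1) minus the library's reference in a one-sample limma 3.58.1 fit over genes averaging 0.1 TPM or more. Spread was tested with the edgeR 4.0.16 goodness-of-fit function (at least 10 counts in every library, prior count 2, R 4.3.3). The quantifications were compared by limma over genes averaging 1 TPM or more in one or the other. A count of 0 allows 3 counts, 0.0506 to 0.0891 CPM of the library totals without TMM scaling. This limit covers counting error alone, because reads lacked molecular identifiers and need not come from separate molecules. Of the other pathway lists, the highest 2 and the lowest 1 of each are named. Alternatives were other pseudocounts (1 and 0.01), other references, no filter, the deposited FPKM, the second quantification, coding transcripts only (added after seeing the data), DESeq2 1.42.0 size factors and leaving out each library. The steps were tested on simulated data. Copies were searched with blastn 2.17.0, and GENCODE M21 matched the authors' identifiers.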

Additional observations from a re-analysis of the deposited data

How the results depend on the processing

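The choice of reference moved the counts most, by its construction. With protein-coding genes of at least 5 TPM as the reference, 2 members lay above and 22 below, beside 10.6% and 66.1% of all genes tested. The median was then -1.29 log2 units. Members that then changed sign were Ulk2 (-0.91), Rb1cc1 (-0.23), Uvrag (-0.31), Atg3 (-0.067) and Atg5 (-1.01). With genes of at least 0.1 TPM as the reference, 12 lay above and 4 below, beside 28.7% and 41.9% of all genes tested. The median was 0.36, with Ulk1 (0.11), Atg13 (0.36), Pik3r4 (0.23), Atg12 (0.47), Map1lc3a (0.51) and Calcoco1 (0.61) changing sign. The second quantification gave a median of -0.69, with 6 members above (5 of the 9) and 15 below (all of the 10), beside 15.5% and 55.8% of all genes tested. It reversed Ulk2 (-0.28), Atg5 (-0.46) and Atg16l1 minus Atg16l2 (-0.21), and raised the members with a coding share under 50% to 5. On coding transcripts only, the median was -0.45, and Becn1 (-1.04), Calcoco1 (0.066), Atg4b minus Atg4a (-0.22) and Atg4b minus Atg4c (-0.43) changed sign; the cause was not tested. Without centring, 28 members were higher in the first quantification. The median over all genes compared was itself higher there by 1.02, 1.22 and 1.52 log2 units in replicates 1, 2 and 3. Nothing about the members is therefore read from that count.

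Leaving out each library gave 8 to 10 members above and 9 to 12 below, beside 19.9% to 21% and 49.4% to 51.1% of all genes tested. Changes of sign then came from Atg5 (-0.091 to 0.098), Calcoco1 (-0.048 to 0.037) and Atg4b minus Atg4c (-0.018 to 0.13). Gabarapl2 was no longer called without replicate 1 (0.95) and Pik3c3 without replicate 3 (-0.93). A pseudocount of 1 left 7 above and 7 below, beside 19.3% and 47.6% of all genes tested. FPKM, no filter and a pseudocount of 0.01 gave 9 and 10, beside 12.9% to 20.5% and 50.7% to 68.8% of all genes tested. The spread test called 0 members with DESeq2 size factors, without a filter, on the second quantification and without each library. At an unadjusted p under 0.05 there were 1 or 2. Over all genes tested these settings called 0.792% to 2.31%, so nothing about the members is read from these counts. No paired analysis was possible because the replicate numbers belong to 1 group.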
